A study of Rattus norvegicus with 15 samples.

Results

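Transcripts of 10 circadian clock genes (Per1, Per2, Per3, Cry1, Clock, Nr1d1, Nr1d2, Dbp, Rora and Rorb) were examined in the subfornical organ of the rat. Every probe set whose annotation held the symbol of 1 of these genes and no other was taken, out of 14217 genes so annotated, which gave 19 probe sets of the 31099 on the array, each followed separately. Of these, 13 passed the filter on dim probe sets and were tested, with at least 1 for each of the 10 genes, and 6 did not. The tissue came from male Sprague Dawley rats aged 10 to 12 weeks, in 3 groups: untreated controls, water-deprived animals and animals deprived of food for 48 h. Each array carried RNA pooled from the organs of 5 animals, and each group had 5 arrays and therefore 25 animals. The sources used here give neither how long water was withheld nor the time of day at which the animals were killed, and the series text, read literally, says that food was withheld for 48 h in every condition.

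The circadian clock is a loop of transcription factors found in nearly every cell of the body. The proteins CLOCK and BMAL1 (or NPAS2 in place of CLOCK) bind E-box sequences and switch on the Per and Cry genes, whose proteins return to the nucleus and repress CLOCK and BMAL1. A second loop runs through nuclear receptors: RORα and RORβ activate, and REV-ERBα and REV-ERBβ, the products of Nr1d1 and Nr1d2, repress, genes that carry their shared binding site, Bmal1 among them. Dbp is an output gene, driven directly by CLOCK and BMAL1, and its protein acts on D-box sequences in turn. Transcripts of this loop rise and fall with the time of day, and feeding time is a known timing signal for clocks outside the suprachiasmatic nucleus. The subfornical organ is a sensory circumventricular organ that lies outside the blood-brain barrier and senses sodium, osmolality and circulating hormones such as angiotensin II.

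Promoter sequences from RefSeq (build GRCr8, 250 bases before to 50 after each start) were at hand for 9 of the 10 genes, as 11 promoters; Cry1 had none. The windows were searched on both strands for the E-box CACGTG, the cAMP response element TGACGTCA, its core TGACG, which lies inside the full element, and the D-box TTATGTAA or its reverse complement TTACATAA. The E-box was found in 1 of the 11, that of Nr1d1, at position -191 from the start, against 6.42% of all 33469 promoters in the table. The D-box was found in 1 of the 11, that of Per2, at position -192, against 0.89% of all promoters. The full cAMP response element was in 0 of the 11 (1.83% of all), and its core was in 3 of the 11, those of Per2, Per3 and Nr1d2 (21.20% of all). Only these exact sequences were searched, so other forms of the E-box or D-box, and sites outside the windows, were not counted. The 250 bases before the start are shown for the promoters that held the E-box and the D-box, since these are the sequences through which the loop and its output act. The capitals mark the motif, each sequence is on the minus strand of the chromosome (chr10:84229455-84229704 for Nr1d1 and chr9:99496994-99497243 for Per2), and a match is a description of letters and not evidence of a bound site.
Nr1d1: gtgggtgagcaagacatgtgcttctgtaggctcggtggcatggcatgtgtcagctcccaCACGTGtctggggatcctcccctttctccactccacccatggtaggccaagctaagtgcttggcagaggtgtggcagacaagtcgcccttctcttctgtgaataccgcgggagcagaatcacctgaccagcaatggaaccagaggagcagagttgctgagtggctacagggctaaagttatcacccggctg
Per2: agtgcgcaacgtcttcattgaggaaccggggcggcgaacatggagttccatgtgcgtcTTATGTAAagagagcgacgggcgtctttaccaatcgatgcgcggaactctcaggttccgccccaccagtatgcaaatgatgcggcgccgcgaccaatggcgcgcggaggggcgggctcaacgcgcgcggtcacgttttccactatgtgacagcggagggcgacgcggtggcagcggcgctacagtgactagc

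Values are log2(signal + 16), where the signal is the authors' scaled intensity of a probe set. They are compared between arrays and not between probe sets. A probe set was called when limma's moderated test gave a Benjamini-Hochberg adjusted p under 0.05 over all 21729 probe sets tested. All adjusted p values are limma's, and differences carry the standard error (SE) of the fit. RNA of a whole organ was measured, so fewer cells of a type and less RNA per cell cannot be told apart.

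The arrays fall into 2 sets by the ratio of 5′ to 3′ signal of the Actb and Gapdh control probe sets, a measure of how complete the labelled RNA is. The high set held 7 arrays, all 5 of the food-deprived group and water-deprived arrays 1 and 2 (mean log2 ratios of -0.85 to -0.71), and the low set held the 5 controls and water-deprived arrays 3 to 5 (-2.72 to -1.23). No set held both control and food-deprived arrays, so food deprivation and array set can be separated only through the 5 water-deprived arrays. Correlations between arrays over all non-control probe sets ranged from 0.893 to 0.983. Of 7 markers of the subfornical organ, 6 were above the filter. The mean level of all 7 was 6.42 to 7.23 in controls, 6.62 to 7.54 after water deprivation and 6.56 to 6.74 after food deprivation. Markers of neighbouring hypothalamus and thalamus moved with food deprivation: 3 of 5 fell, where 8.53% of all probe sets tested were called. The mean level of the list was 7.86 to 9.30 in controls, 6.90 to 9.00 after water deprivation and 6.52 to 6.78 after food deprivation. The same list differed between the array sets (median of -2.37, with 3 of 5 lower in the high set). Other lists held called markers between the array sets as well, where 15.9% of all probe sets tested were called. The median was -0.98 for the subfornical organ (2 of 6 lower), -0.17 for astrocytes and tanycytes (2 of 8 lower), 1.86 for choroid plexus (1 of 5 higher), -0.06 for neurons (1 higher and 1 lower of 10) and -0.02 for microglia and macrophages (1 of 7 lower). Markers of neurons, astrocytes, oligodendrocytes, microglia, choroid plexus and ependyma gave no calls in the comparisons between groups, although the median after food deprivation was 1.02 for choroid plexus and 0.65 for oligodendrocytes, and 1 of 6 endothelial markers rose after food deprivation. The part of these marker changes in the clock gene values was not tested.

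After 48 h without food, 4 of the 13 clock probe sets were called against control: Rora 1379397_at, Rorb 1395023_at and Clock 1390199_at fell, and a second Rora probe set, 1380478_at, rose. In the same comparison 8.53% of all probe sets tested were called, 4.77% higher and 3.76% lower. The split of these calls depended on the scaling: 1037 higher and 817 lower as deposited, 825 and 971 under quantile normalization, and 652 and 1178 under centring of each array on its median, which moved the median difference by -0.10. The directions of the 4 clock calls were the same under all 3 scalings. After water deprivation none of the 13 was called against control, where 0.00460% of all probe sets (1 of 21729) were. None was called between water and food deprivation, where 0.152% were. With no adjustment, p was under 0.05 for 8 of the 13 between food deprivation and control (5715 of all 21729 probe sets), for 2 between water deprivation and control (1412 of all) and for 6 between water and food deprivation (3427 of all). The test of any difference among the 3 groups called 1 of the 13, Rora 1380478_at (adjusted p = 0.0436), against 3.56% of all. That probe set passed the filter on dim signal only through its high arrays, so its call here and after food deprivation is not independent of the filter. The median difference of the 13 from control was -0.25 after food deprivation, with 3 of 13 above 0, where the median of all probe sets tested was 0.05 and 56.8% were above 0. The corresponding median after water deprivation was -0.07, with 3 of 13 above 0, beside 0.00 and 50.5% above 0 for all probe sets. With the array set as a term, 5 of the 13 were above 0 after food deprivation (46.7% of all) and 6 after water deprivation (43.5% of all). Both comparisons use the same 5 control arrays and are given side by side for that reason.

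**Figure D1:**
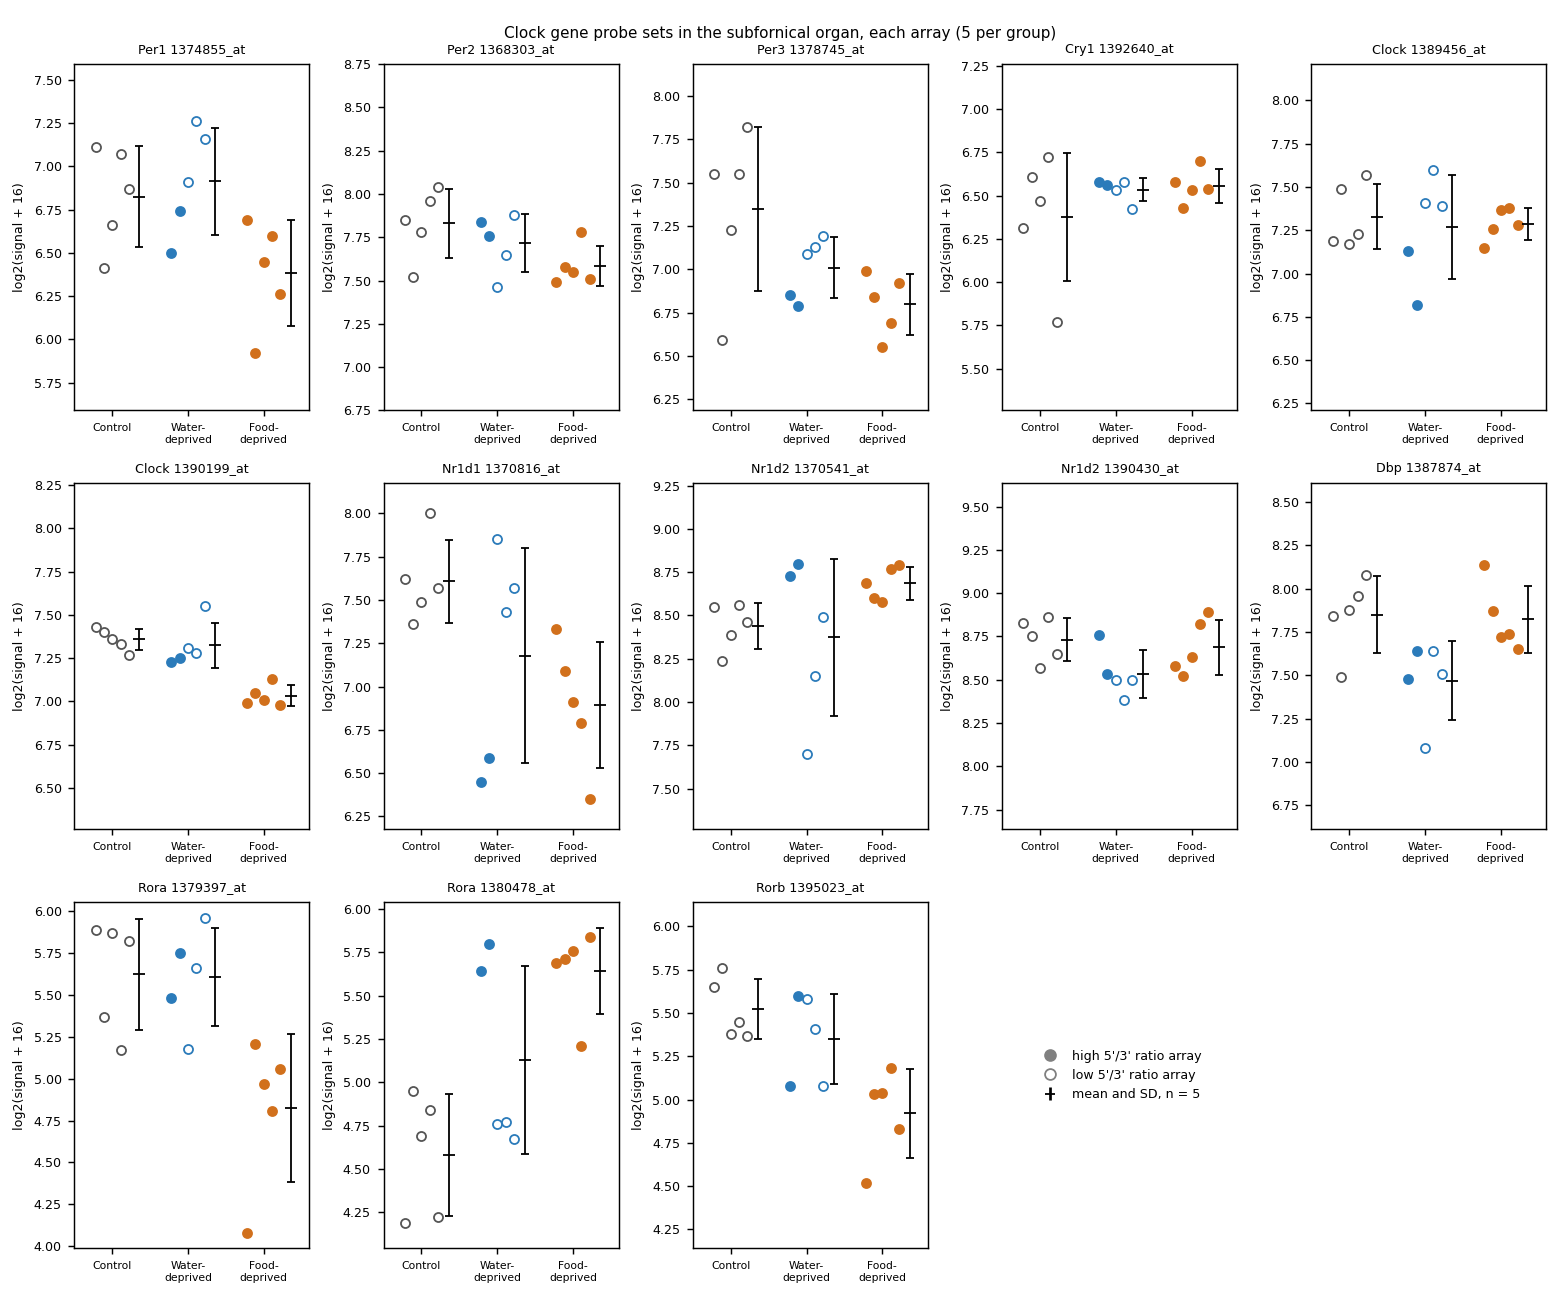
Values of the 13 tested clock gene probe sets on each of the 15 arrays, as log2(signal + 16), with filled points for the high 5′/3′ ratio set, open points for the low set, and bars for the mean and SD of 5 arrays. Food-deprived arrays lie below every control array for Clock 1390199_at, Nr1d1 and Rorb and above every control array for Rora 1380478_at, while the water-deprived arrays of Nr1d1 and of Rora 1380478_at separate by array set.

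With the array set as a term in the fit, none of the 13 was called in any comparison between groups. Of all probe sets, 0.0276% were then called between water deprivation and control, and 0% between food deprivation and control or between water and food deprivation. limma's unadjusted p was under 0.05 for 3, 2 and 2 of the 13 in these comparisons, and for 1295, 1879 and 2174 of all probe sets. The array set itself, estimated within the water-deprived group, was called for 4 of the 13, Nr1d1, Nr1d2 1370541_at, Rora 1380478_at and Clock 1389456_at, against 15.9% of all probe sets. The count of 4 falls to 0 without water-deprived array 1 or array 2 and to 2 without array 3, since the estimate compares 2 arrays with 3. The food difference and the difference between the array sets within water deprivation, which use no common array, had the same sign for 9 of the 13 (69.2%), as for 74.5% of all probe sets tested. Among called probe sets the share was 3 of 4 here and 93.6% of all 1854.

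**Figure D2:**
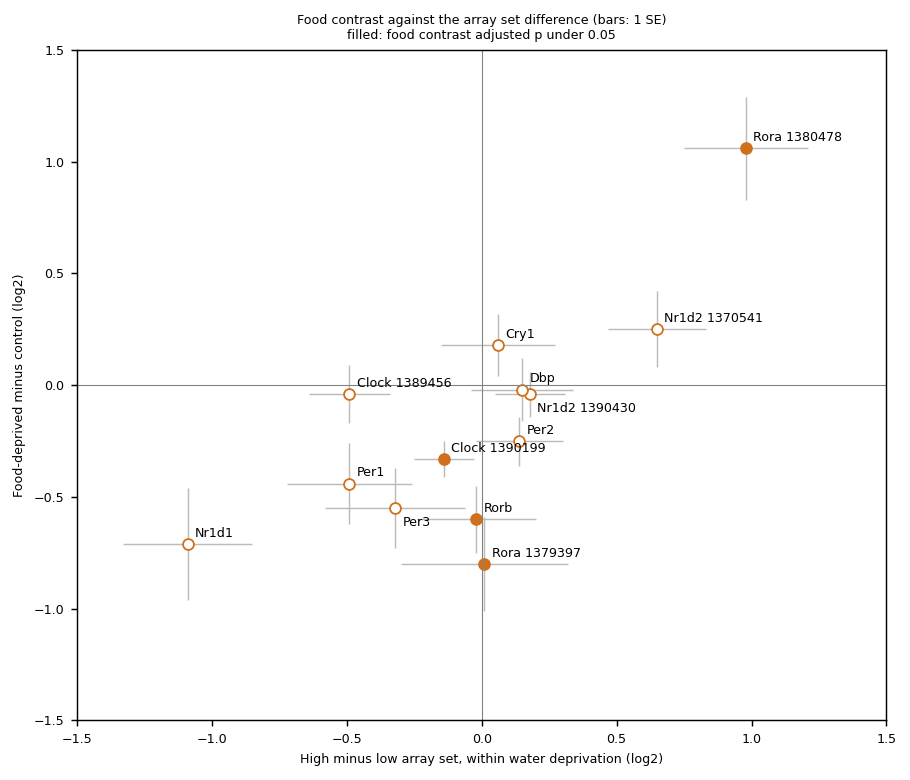
Each point is 1 clock gene probe set, with its difference between high and low array sets within water deprivation on the horizontal axis and its difference between food deprivation and control on the vertical axis, both in log2 units with bars of 1 SE. Rora 1380478_at lies near 1 on both axes, whereas the called decreases of Rora 1379397_at and Rorb lie near 0 on the horizontal axis.

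The Ror genes carried 3 of the 4 calls. Rora encodes RORα, the activating nuclear receptor of the second loop, and its probe sets went in opposite directions. Probe set 1379397_at read 5.89, 5.37, 5.87, 5.17 and 5.82 in controls, 5.48, 5.75, 5.18, 5.66 and 5.96 after water deprivation and 4.08, 5.21, 4.97, 4.81 and 5.06 after food deprivation. The food-deprived arrays were low, with food-deprived array 1 the lowest and array 2 just inside the control range, and the water-deprived arrays spanned the range of the controls. It fell by 0.80 on the log2 scale (SE 0.21, adjusted p = 0.0327) after food deprivation and differed from control by -0.02 (SE 0.21, adjusted p = 0.992) after water deprivation. The size depends on the offset: the food difference was -1.60 (adjusted p = 0.0695, not called) with an offset of 1 and -0.34 (0.0302) with an offset of 64. Within water deprivation it averaged 5.61 ± 0.19 SD on 2 high arrays and 5.60 ± 0.39 SD on 3 low arrays (difference 0.01, SE 0.31). That difference ranged from -0.198 to 0.191 with 1 array left out. With the array set as a term the food difference was -0.81 (SE 0.38, adjusted p = 0.583), close to the value without it but with a larger error. On the high arrays alone, the water-deprived readings of 5.48 and 5.75 were above all 5 food-deprived readings.

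Probe set 1380478_at of the same gene read 4.19, 4.95, 4.69, 4.84 and 4.22 in controls, 5.64, 5.80, 4.76, 4.77 and 4.67 after water deprivation and 5.69, 5.71, 5.76, 5.21 and 5.84 after food deprivation. The 5 food-deprived arrays were high together with water-deprived arrays 1 and 2, and water-deprived arrays 3 to 5 sat among the controls. It rose by 1.06 (SE 0.23, adjusted p = 0.0141) after food deprivation. Its signals before the offset of 16 were 2.3 to 14.9 in controls, so the size depends on the offset: 2.15 with an offset of 1 and 0.44 with an offset of 64, called with each. The array sets differed by a similar amount within water deprivation (0.98, SE 0.23, adjusted p = 0.012), and with that term the food difference was 0.08 (SE 0.28, adjusted p = 0.955). With the 5′/3′ ratio itself as a term in place of the array set, the food difference was 0.72 (adjusted p = 0.172). The set difference missed the threshold without water-deprived array 1 (1.06, adjusted p = 0.0536) or array 2 (0.90, adjusted p = 0.105). Its mean over 15 arrays, 5.12, was at the 30th percentile and only just above the filter at 5.11, and its control mean of 4.58 was below it, so it was tested because of its high arrays. The part of array set in the rise could not be separated from that of food deprivation for this probe set. Where each of these probe sets lies on the Rora transcripts was not analysed here, so the gene as a whole has no single direction in these data.

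Rorb encodes RORβ, a relative of RORα found mainly in brain and retina. Probe set 1395023_at read 5.65, 5.76, 5.38, 5.45 and 5.37 in controls, 5.08, 5.60, 5.58, 5.41 and 5.08 after water deprivation and 4.52, 5.03, 5.04, 5.18 and 4.83 after food deprivation. Every food-deprived array was below every control, while the water-deprived arrays reached into both ranges. It fell by 0.60 (SE 0.15, adjusted p = 0.0242) after food deprivation (-1.05 with an offset of 1 and -0.26 with an offset of 64, both called), and the array sets within water deprivation differed by -0.02 (SE 0.22, adjusted p = 0.96). On the high arrays alone, the water-deprived readings of 5.08 and 5.60 overlapped the food-deprived range of 4.52 to 5.18. The food difference with the array set as a term was -0.58 (SE 0.26, adjusted p = 0.571). Its other probe set, 1371257_at, was below the filter and read 4.80 to 5.34 in controls and 4.93 to 5.34 after food deprivation. Both decreasing Ror probe sets were dim, at the 37.0th (Rora 1379397_at) and 34.5th (Rorb) percentile of mean level.

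These calls were near the threshold. Rora 1379397_at was not called without food-deprived array 1, 3 or 4 or control array 1, 3 or 5 (adjusted p of 0.059 to 0.0837), and Rorb was not called without food-deprived array 1 or 5 or control array 1 or 2 (0.0501 to 0.0641). Rora 1380478_at was called in each of the 15 fits that left out 1 array (adjusted p of 0.00693 to 0.0442). It was tested only because of its high arrays, so these calls are not independent of the filter either.

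Clock encodes the DNA-binding activator of the loop, and its probe sets are given one by one. Probe set 1390199_at read 7.43, 7.40, 7.36, 7.33 and 7.27 in controls, 7.23, 7.25, 7.31, 7.28 and 7.55 after water deprivation and 6.99, 7.05, 7.01, 7.13 and 6.98 after food deprivation. The food-deprived arrays were below all 10 others, and this probe set had the smallest spread of the 13 in controls (SD 0.06, the 2.3rd percentile of all probe sets tested). It fell by 0.33 (SE 0.08, 1.25-fold, adjusted p = 0.0282) after food deprivation and differed by -0.03 (SE 0.08, adjusted p = 0.944) after water deprivation. With the array set as a term the food difference was -0.18 (SE 0.13, adjusted p = 0.686), and the array sets differed by -0.14 (SE 0.11, adjusted p = 0.396). The call was lost without food-deprived array 1, 2, 3 or 5 or control array 1 or 3 (adjusted p of 0.0578 to 0.0731).

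Probe set 1389456_at of Clock read 7.19, 7.49, 7.17, 7.23 and 7.57 in controls, 7.13, 6.82, 7.41, 7.60 and 7.39 after water deprivation and 7.15, 7.26, 7.37, 7.38 and 7.28 after food deprivation. The groups overlapped, and within water deprivation arrays 1 and 2 were the lowest. Its difference from control was -0.04 (SE 0.13, adjusted p = 0.879) after food deprivation and 0.45 (SE 0.18, adjusted p = 0.541) with the array set as a term. The array sets differed by -0.49 (SE 0.15, adjusted p = 0.0374), a call that was lost without water-deprived array 1, 2, 3 or 4 in turn (adjusted p of 0.0535 to 0.323). The 2 dim probe sets of Clock, 1369168_a_at and 1380098_at, read 4.11 to 5.12 over the 15 arrays. With no filter on dim probe sets, 1369168_a_at was called after food deprivation in the opposite direction to 1390199_at (0.50, SE 0.14, adjusted p = 0.0435).

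The nuclear receptor repressors are encoded by Nr1d1 and Nr1d2. Nr1d1 encodes REV-ERBα, and its probe set 1370816_at read 7.62, 7.36, 7.49, 8.0 and 7.57 in controls, 6.45, 6.59, 7.85, 7.43 and 7.57 after water deprivation and 7.33, 7.09, 6.91, 6.79 and 6.35 after food deprivation. Every food-deprived array was below every control, and within water deprivation arrays 1 and 2 were low and arrays 3 to 5 lay inside or beside the control range. The difference from control was -0.71 (SE 0.25, adjusted p = 0.0861) after food deprivation and -0.43 (SE 0.25, adjusted p = 0.76) after water deprivation. The array sets differed by -1.09 (SE 0.24, adjusted p = 0.00831). With that term the food difference changed sign, to 0.38 (SE 0.29, adjusted p = 0.692), and the water difference was 0.01 (SE 0.19). Without water-deprived array 1 the set difference was -1.02 (adjusted p = 0.0667), and without array 2 it was -1.17 (0.0541). The food difference passed the threshold in the fit without water-deprived array 3 (adjusted p = 0.0486). It passed in a fit of the 10 control and food-deprived arrays too (0.0151), a setting that called 4183 of all probe sets. It also passed with array weights (-0.744, 0.00723), a setting that called 5840 of all probe sets.

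Nr1d2 encodes REV-ERBβ. Probe set 1370541_at read 8.55, 8.24, 8.39, 8.56 and 8.46 in controls, 8.73, 8.80, 7.70, 8.15 and 8.49 after water deprivation and 8.69, 8.60, 8.58, 8.77 and 8.79 after food deprivation. All 7 arrays of the high set were above all 8 arrays of the low set. The food difference was 0.25 (SE 0.17, adjusted p = 0.365), the array sets differed by 0.65 (SE 0.18, adjusted p = 0.0219), and with that term the food difference was -0.40 (SE 0.21, adjusted p = 0.612). The set difference was not called without water-deprived array 1, 2 or 3 (adjusted p of 0.0622 to 0.14). The brightest probe set of the gene, 1390430_at, ranged from 8.57 to 8.86 in controls, 8.38 to 8.76 after water deprivation and 8.52 to 8.89 after food deprivation. Its difference from control was -0.04 (SE 0.10, adjusted p = 0.824) after food deprivation and -0.20 (SE 0.10, adjusted p = 0.752) after water deprivation, and its array sets differed by 0.18 (SE 0.13, adjusted p = 0.367). A further, dim probe set of Nr1d2, 1370540_at, read 4.18 to 5.04 in controls and 4.81 to 5.60 after food deprivation.

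**Figure D3:**
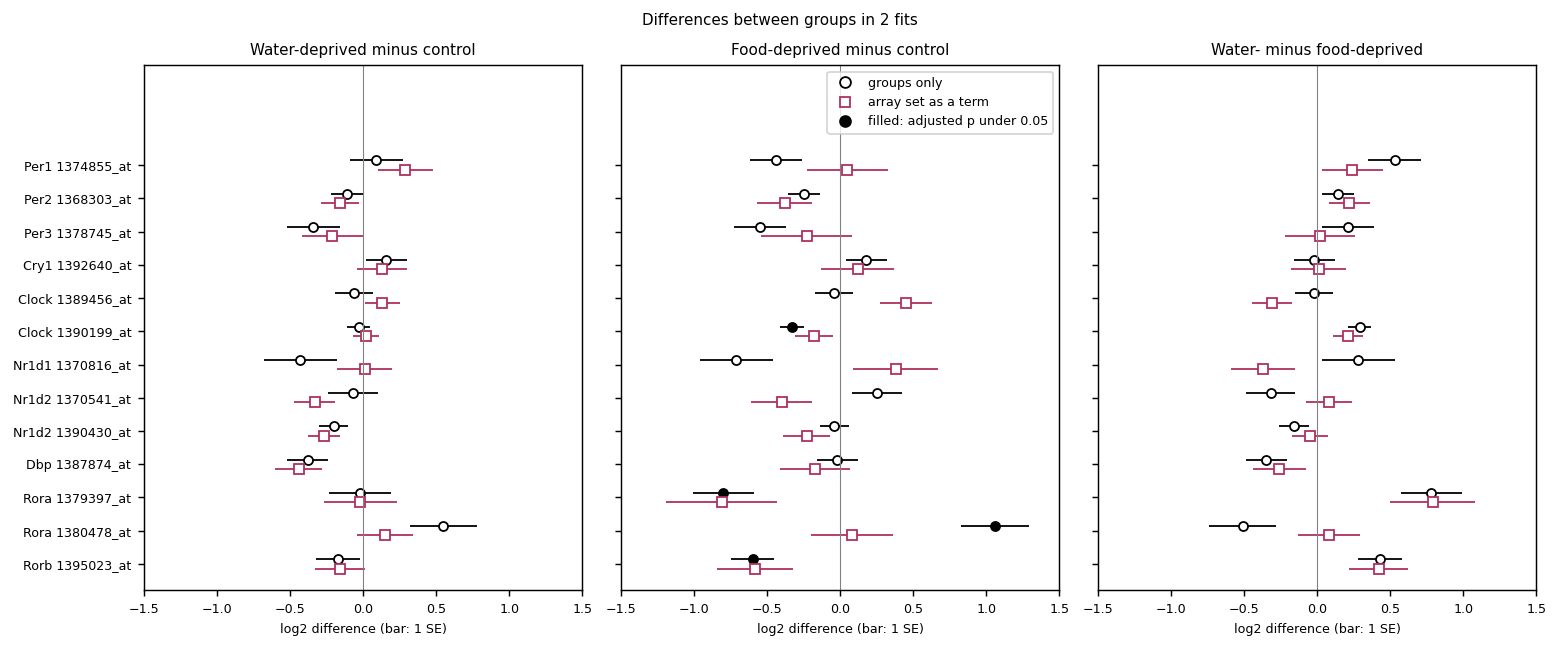
Differences in log2 units between groups for the 13 tested clock gene probe sets, with bars of 1 SE, fitted on the 3 groups alone (circles) or with the array set added (squares); filled marks have an adjusted p under 0.05. The 4 filled marks are all between food deprivation and control, and for Rora 1380478_at and Nr1d1 the squares lie on the other side of, or near, 0.

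The Per genes encode the repressors of the first loop, and their food-deprived means were below the control means without passing the test. Per1 1374855_at read 7.11, 6.41, 6.66, 7.07 and 6.87 in controls, 6.50, 6.74, 6.91, 7.26 and 7.16 after water deprivation and 6.69, 5.92, 6.45, 6.60 and 6.26 after food deprivation. Its lowest reading was on food-deprived array 2 and the groups overlapped. The difference from control was -0.44 (SE 0.18, adjusted p = 0.135) after food deprivation and 0.09 (SE 0.18, adjusted p = 0.927) after water deprivation. With the array set as a term the food difference of Per1 was 0.05 (SE 0.28, adjusted p = 0.975). With array weights it was -0.51 and passed the test (adjusted p = 0.0198), as did Per2 (-0.26, 0.0339) and Per3 (-0.65, 0.00258). That setting called 5840 of all probe sets, against 1854 without weights.

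Per3 1378745_at read 7.55, 6.59, 7.23, 7.55 and 7.82 in controls, 6.85, 6.79, 7.09, 7.13 and 7.19 after water deprivation and 6.99, 6.84, 6.55, 6.69 and 6.92 after food deprivation. Control array 2 was as low as the food-deprived arrays, and the other 4 controls were above all of them. The difference from control was -0.55 (SE 0.18, adjusted p = 0.0713) after food deprivation and -0.34 (SE 0.18, adjusted p = 0.752) after water deprivation. Without control array 2 the food difference was -0.74 and passed the test (adjusted p = 0.00894), and under centring of each array on its median it was -0.65 (adjusted p = 0.0486). With the array set as a term it was -0.23 (SE 0.31, adjusted p = 0.838).

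Per2 1368303_at ranged from 7.52 to 8.04 in controls, 7.46 to 7.88 after water deprivation and 7.49 to 7.78 after food deprivation. The difference from control was -0.25 (SE 0.11, adjusted p = 0.173) after food deprivation and -0.11 (SE 0.11, adjusted p = 0.857) after water deprivation, and its food difference was -0.38 (SE 0.19, adjusted p = 0.594) with the array set as a term. The dim probe sets of the family, Per2 1378560_at and Per3 1388239_at, read 4.14 to 4.89 over the 15 arrays. Cry1 encodes cryptochrome 1, the partner of the PER proteins in repression. Its probe set 1392640_at ranged from 5.77 to 6.72 in controls, 6.42 to 6.58 after water deprivation and 6.43 to 6.70 after food deprivation. Most of the control range came from control array 5, at 5.77, and the difference from control was 0.18 (SE 0.14, adjusted p = 0.457) after food deprivation and 0.16 (SE 0.14, adjusted p = 0.842) after water deprivation.

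Dbp was the clock gene with the smallest unadjusted p between water deprivation and control. Probe set 1387874_at read 7.84, 7.49, 7.88, 7.96 and 8.08 in controls, 7.48, 7.64, 7.08, 7.64 and 7.51 after water deprivation and 8.14, 7.87, 7.72, 7.74 and 7.65 after food deprivation. The water-deprived arrays were below all food-deprived arrays, by 0.01 at the closest, and overlapped with the controls only through control array 2. The difference was -0.38 (SE 0.14, unadjusted p = 0.0135, adjusted p = 0.719) from control and -0.35 (SE 0.14, adjusted p = 0.222) from food deprivation, and neither was called. The water difference from control was -0.44 (SE 0.16, adjusted p = 0.752) with the array set as a term, and the array sets differed by 0.15 (SE 0.19, adjusted p = 0.627).

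Groups did not overlap for 5 of the 13 probe sets between food deprivation and control (Clock 1390199_at, Nr1d1, Nr1d2 1370541_at, Rora 1380478_at and Rorb), as for 15.4% of all probe sets tested. Between water and food deprivation this held for 2 of the 13 (Clock 1390199_at and Dbp), against 3.5% of all, and between water deprivation and control for 0 of the 13, against 0.7% of all.

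Among the 5 control pools, control array 2 was the lowest control for 6 of the 13 probe sets, those of Per1, Per2, Per3, Nr1d1 and Dbp and Nr1d2 1370541_at, and was the lowest for 29.3% of all probe sets tested. Control array 2 was the highest control for 2 of the 13 and for 27.0% of all. The pattern was picked after the values were seen. Control array 2 was lowest and control array 5 highest for Per2, Per3 and Dbp (23.1% of the 13), against 14.6% of all probe sets tested and 5.9% of 34 probe sets of other clock genes. Usp2, a clock-controlled ubiquitin protease, was among the latter, with probe set 1387703_a_at at 7.76, 6.56, 8.13, 7.63 and 8.65 in controls. Bmal1 1370510_a_at stayed between 6.24, on control array 2, and 6.45 over the same controls. Control arrays 2 and 5 also lay at opposite ends of the controls for some tissue markers. They read 10.41 and 6.74 for Nefl (neuron) and 7.07 and 10.73 for Folr1 (choroid plexus). Other markers did not follow this order, such as Gap43 (neuron), which was highest on control array 4 (10.78). The part of tissue content in the clock gene pattern was not tested. The spread of Per3 between controls (SD 0.47) was at the 89.9th percentile of all probe sets tested, and that of Cry1 (SD 0.37) at the 82.1st. The median SD over the 13 was 0.22 in controls, 0.25 after water deprivation and 0.18 after food deprivation, beside 0.21, 0.27 and 0.17 over all probe sets tested.

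**Figure D4:**
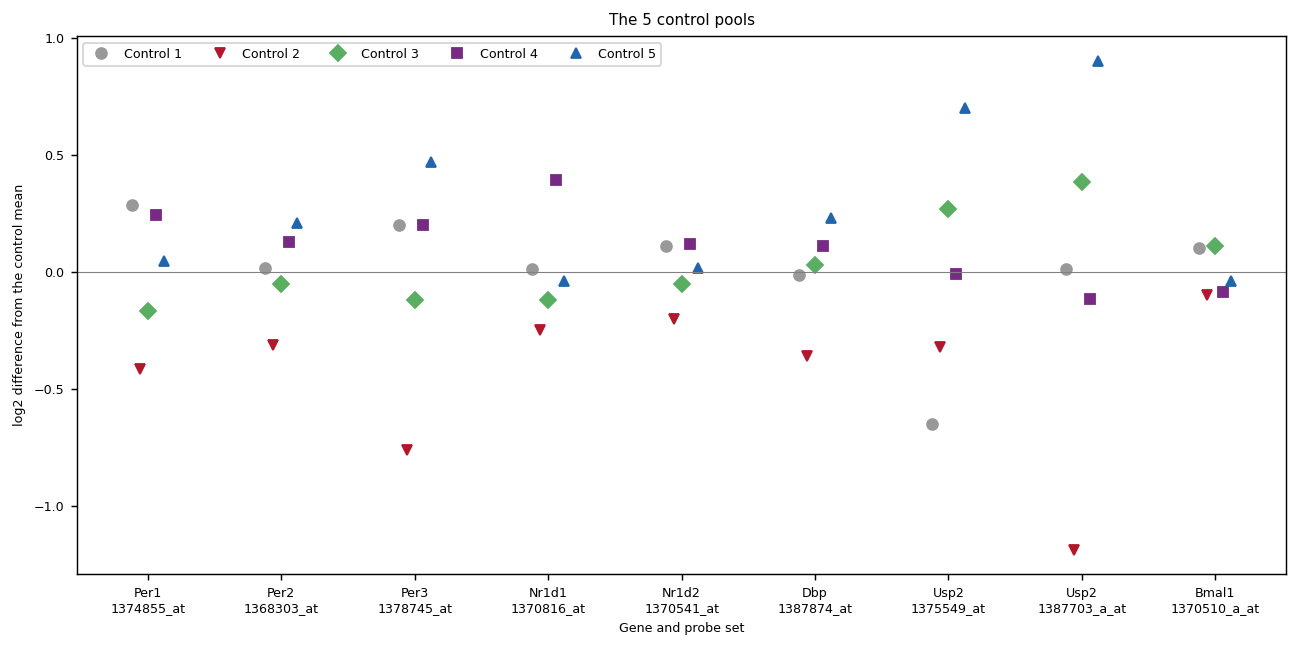
Each point is the value of 1 control array minus the mean of the 5 controls, in log2 units, for probe sets of 8 clock genes, Usp2 with both of its own. The Per, Dbp, Nr1d1 and Nr1d2 probe sets shown were chosen because control array 2 was their lowest control. Control array 2 lies lowest for 1 of Usp2 too. It is also narrowly the lowest for Bmal1, whose controls lie close together.

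Of 25 further genes of the clock, 21 had a probe set of their own and 20 passed the filter with their brightest probe set. None was called after water deprivation, where 0.00460% of all probe sets were, and 11 of 20 were above 0 (median 0.01; 50.5% of all probe sets above 0). After food deprivation 1 of 20 was called, where 8.53% of all were, and 11 of 20 were above 0 (median 0.06; 56.8% of all above 0). The activators Bmal1 and Npas2 differed from control by -0.00 (SE 0.10, adjusted p = 0.994) and 0.28 (SE 0.11, adjusted p = 0.129) after food deprivation. Among the repressors, Cry2 differed by 0.10 (adjusted p = 0.549), Bhlhe40 by 0.23 (adjusted p = 0.348), Bhlhe41 by -0.12 (adjusted p = 0.606) and Timeless by -0.17 (adjusted p = 0.481). The D-box factors, relatives of Dbp or its antagonist Nfil3, did not pass either: the food difference was 0.16 for Tef (adjusted p = 0.446), 0.05 for Hlf (adjusted p = 0.872) and 0.20 for Nfil3 (adjusted p = 0.504). A dimmer probe set of Tef, 1385374_at, differed from control by -0.31 (adjusted p = 0.122) after food deprivation and -0.33 (adjusted p = 0.719) after water deprivation. After water deprivation the differences of Bmal1, Npas2, Cry2 and Bhlhe41 were 0.13, 0.25, 0.15 and -0.33, none called (adjusted p of 0.719 to 0.82). Bhlhe40 differed between the array sets (0.61, SE 0.15, adjusted p = 0.0164).

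The 1 call after food deprivation was Gsk3b, a kinase that phosphorylates clock proteins among many other targets. It read 7.26, 7.09, 6.95, 6.64 and 6.53 in controls, 5.83, 5.77, 7.18, 6.55 and 7.10 after water deprivation and 5.58, 6.15, 5.24, 5.34 and 5.32 after food deprivation. Food-deprived arrays were below all controls, and water-deprived arrays 1 and 2 were below them too. It fell by 1.37 (SE 0.27, adjusted p = 0.00838), the array sets differed by -1.14 (SE 0.27, adjusted p = 0.0127), and with that term the food difference was -0.23 (SE 0.33, adjusted p = 0.85). Probe sets other than the brightest were called after food deprivation for Btrc 1391694_at (0.73, adjusted p = 0.0435), Csnk1d 1370528_at (0.42, adjusted p = 0.034) and Csnk1e 1386693_at (0.65, adjusted p = 0.0226). With Gsk3b, these were the only calls among all 34 tested probe sets of other clock genes, where 8.53% of all probe sets were called. Csnk1d had 5 probe sets, and this was the only one of them called. The brightest probe sets of Btrc, Csnk1d and Csnk1e differed by 0.06, -0.10 and -0.11 and were not called (adjusted p of 0.757, 0.626 and 0.689), and the difference between probe sets of a gene was not tested. The array sets differed for Btrc 1391694_at (0.87, adjusted p = 0.0137) and Csnk1e 1386693_at (0.59, adjusted p = 0.0306), and by 0.11 (adjusted p = 0.664) for Csnk1d 1370528_at.

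**Figure D5:**
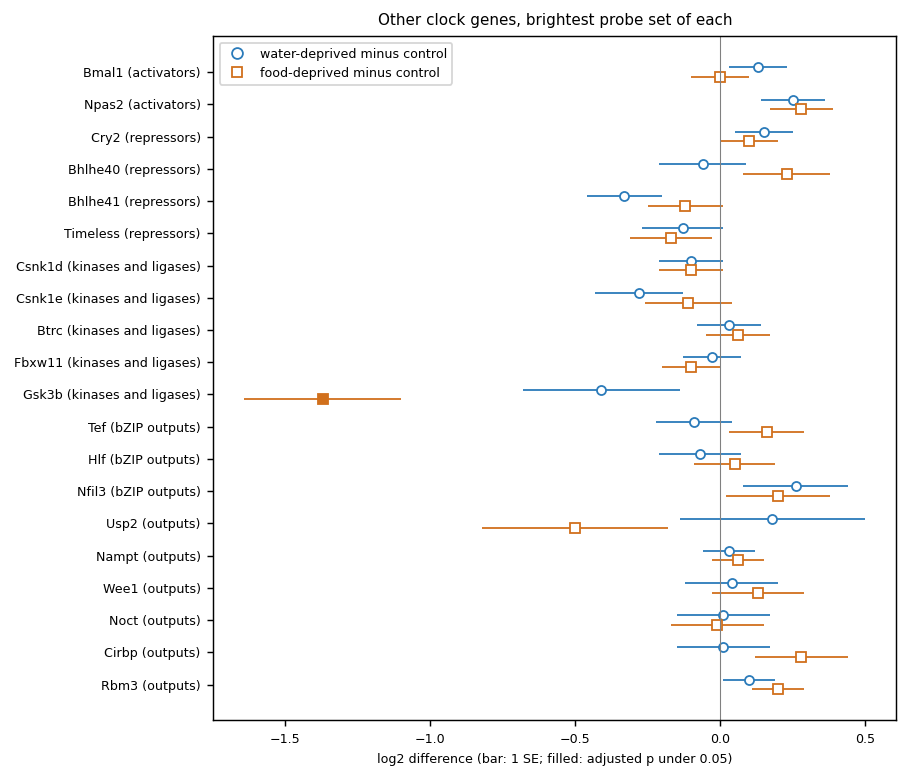
Differences from control in log2 units, with bars of 1 SE, for the brightest probe set of 20 other clock genes after water deprivation (circles) and food deprivation (squares), filled where the adjusted p is under 0.05. Gsk3b at -1.37 is the single filled mark.

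The probe set with the smallest p among the 3 groups, Rora 1380478_at, was set beside the brightest probe set of each of 11509 other genes over the 15 arrays. The most like it were Psmd4, a proteasome subunit (r = 0.943), Cyth1, an exchange factor for ARF GTPases (r = 0.935), and Slc25a4, the mitochondrial ADP/ATP carrier (r = 0.933). These are descriptions over arrays that share groups and array sets.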

How the data were processed

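Expression was measured on 15 Affymetrix rat arrays, 5 per group, each with RNA pooled from 5 animals. The deposited values are linear signal intensity per probe set, which the authors made in GCOS 1.2, per the submitters' processing notes; neither the algorithm nor the scaling target is given in the sources used here. Every array had a 2% trimmed mean of 100.0 while quantiles differed, so the authors' scaling was kept.

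Values were analysed as log2(signal + 16), and a fold is on that scale, which understates the change of dim probe sets. The 57 control probe sets were left out. Only probe sets were tested whose mean over 15 arrays passed the 30th percentile (5.11 in log2 units), which left 21729. limma 3.58.1 in R 4.3.3 fitted the 3 group means together (12 residual degrees of freedom, variance trend), two-sided, with Benjamini-Hochberg adjustment over all probe sets tested. A second fit added the array set, split at a mean log2 5′/3′ ratio of -1 (11 degrees of freedom). The labels describe the arrays of a group as separate pools of animals, and p values measure the spread between pools. Replicate numbers do not pair the arrays. Detection calls were not used, and arrays give no counting interval, so their number limits the precision.

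Named are all member probe sets, other clock genes from a fixed list that passed in any comparison together with a fixed core of it, and the 3 genes most like the member with the smallest F-test p. The members, lists, array-set division and tests were chosen with earlier results of these data known. The alternatives tried are given in the closing section. The fit was tested on simulated data for food deprivation against control over 21729 probe sets, with 200 changed by a log2 value of 1, of which 83.0% were recovered, and 4.0% of calls were false. The simulated noise was independent between probe sets and held no array set effect. These shares therefore check the fit and do not give the share of false calls in the data. Figures used Python 3.11.15, pandas 2.3.3, numpy 2.4.6 and matplotlib 3.10.9.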

Additional observations from a re-analysis of the deposited data

Results flagged for a closer look

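Single arrays stood apart from the other 4 of their group for 3 of 57 combinations of a clock gene probe set and a group, where chance gives about 1 in 20. Rora 1380478_at read 5.21 on food-deprived array 4 and 5.69 to 5.84 on the others, a gap of 0.760 of the group's range. Clock 1390199_at read 7.55 on water-deprived array 5 and 7.23 to 7.31 on the others (0.728 of the range). The dim Clock 1380098_at read 4.13 on water-deprived array 3, which had the lowest 5′/3′ ratio of all arrays, and 4.59 to 4.70 on the others (0.808 of the range).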

How the results depend on the processing

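Fits that left out 1 array kept the direction and side of the threshold for 93 of 120 values of called differences and lost the call for 27. In other settings 34 of 45 kept it and 11 lost it, and no called difference changed sign. Of the differences that were not called, 1191 values stayed as they were with 1 array left out, 52 changed sign and 2 became called, and in other settings these numbers were 379, 25 and 10. The cause was not tested, except that a filter at the 50th percentile leaves Rora and Rorb untested. Depth does not apply to arrays: 3 of the 4 calls after food deprivation were for probe sets near the filter on dim signal.

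The clock count between food deprivation and control, 4, became 1 with the filter at the 50th percentile, 8 with array weights, 0 with the array set as a term and 0 with the 5′/3′ ratio as a term, and ranged from 1 to 5 with 1 array left out: 1 without food-deprived array 1 or control array 1, and 2 without food-deprived array 3 or 5 or control array 3. With the ratio the 4 differences were -0.303 for Clock 1390199_at, -0.922 for Rora 1379397_at, -0.502 for Rorb and 0.716 for Rora 1380478_at (adjusted p of 0.106 to 0.198). An offset of 1 ended the call of Rora 1379397_at (-1.602 against -0.795, adjusted p = 0.0695). Array weights added Per1, Per2, Per3 and Nr1d1 to the calls after food deprivation, and called 4, Per1, Clock 1390199_at and both Rora probe sets, between water and food deprivation. Of all probe sets, 1119 were called between food deprivation and control with the filter at the 50th percentile, 5840 with array weights, 4183 with only the 10 arrays compared, 0 with the array set and 122 with the ratio, and 807 to 2854 with 1 array left out. For water against food deprivation (33) the count was 106 under quantile normalization, 101 under median centring, 21 with an offset of 64, 71 with the filter at the 50th percentile, 2744 with array weights, 0 with only the 10 arrays, 0 with the set, 0 with the ratio and 0 to 771 with 1 array left out. For water deprivation against control (1) it was 3 with no filter, 0 with the filter at the 50th percentile, 2 with array weights, 0 with only the 10 arrays, 6 with the set, 3 with the ratio and 0 to 2 with 1 array left out. In the fit with that term, leaving out 1 array gave 838 to 3892 calls for the set itself, 0 to 4 of them clock probe sets, 0 to 4 between water and food deprivation, 0 to 1 between food deprivation and control and 0 to 13 between water deprivation and control.

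The replicate numbers did not pair the arrays: deviations of same-numbered arrays correlated from -0.36 to 0.37, and 1 of 15 arrays correlated best with its own number. The replicate block left 2 of the 4 clock calls after food deprivation, where 1254 of all probe sets were then called. It left 20 calls of all probe sets between water and food deprivation and 0 between water deprivation and control.

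The values that changed sign were all of differences that were not called. Between food deprivation and control they were 0.001 for Nr1d2 1390430_at and 0.015 for Dbp under quantile normalization, 0.053 for Clock 1389456_at with array weights, 0.113 for it and -0.092 for Nr1d2 1370541_at with the ratio, and 0.050 for Per1, 0.445 for Clock 1389456_at, 0.385 for Nr1d1 and -0.405 for Nr1d2 1370541_at with the array set. Between water deprivation and control they were 0.10 for Clock 1389456_at, 0.029 for Clock 1390199_at and 0.050 for Rora 1379397_at with array weights, and 0.134, 0.024 and 0.011 for Clock 1389456_at, Clock 1390199_at and Nr1d1 with the array set. Between water and food deprivation they were 0.024 for Cry1 under quantile normalization, 0.070 and 0.074 for Cry1 and Clock 1389456_at under median centring, 0.047 for Clock 1389456_at with array weights, 0.021 and -0.050 for Cry1 and Nr1d1 with the ratio, and 0.011, -0.374, 0.077 and 0.079 for Cry1, Nr1d1, Nr1d2 1370541_at and Rora 1380478_at with the array set.

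Ranges that crossed 0 with 1 array left out were, after food deprivation, -0.083 to 0.017 for Clock 1389456_at and -0.113 to 0.035 for Dbp. After water deprivation they were -0.144 to 0.051 for Clock 1389456_at, -0.173 to 0.102 for Nr1d2 1370541_at, -0.012 to 0.195 for Per1 and -0.130 to 0.090 for Rora 1379397_at. Between water and food deprivation they were -0.101 to 0.094 for Clock 1389456_at and -0.054 to 0.014 for Cry1. Once the array set was a term they were -0.028 to 0.208 for Cry1, -0.071 to 0.171 for Per1 and -0.021 to 0.184 for Rora 1380478_at after food deprivation. The same fit gave -0.060 to 0.074 for Clock 1390199_at, -0.017 to 0.218 for Cry1, -0.107 to 0.108 for Nr1d1 and -0.20 to 0.189 for Rora 1379397_at after water deprivation. It gave -0.020 to 0.048 for Cry1, -0.163 to 0.068 for Nr1d2 1390430_at, -0.039 to 0.070 for Per3 and -0.029 to 0.159 for Rora 1380478_at between water and food deprivation. For the set difference itself the ranges were -0.016 to 0.264 for Dbp, -0.198 to 0.191 for Rora 1379397_at and -0.275 to 0.237 for Rorb.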
